A study of Mus musculus with 15 samples.

Results

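The expression of 10 glycosyltransferase genes, St6gal1, St3gal1, St3gal2, St3gal4, St3gal5, St3gal6, St8sia4, Gcnt1, Gcnt2 and B4galt1, was followed in mouse macrophages, out of the 18193 genes that at least 1 unshared probe set names. Each gene was read from 1 probe set annotated to it alone, chosen by the highest mean over all 15 arrays. Those means are given only as a description and lay between 5.73 and 9.47 on the log2 scale. All 10 genes were among the 13703 that passed the filter on low values, which kept a gene where 3 or more arrays put it above their 40th percentile. On all 15 arrays 9 of the 10 lay above that percentile, Gcnt1 being the exception. The genes were picked with earlier results of these data known, so the number of them that changed describes the set and is no independent evidence.

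Macrophages were grown from mouse bone marrow for 7 days with M-CSF, which turns marrow precursors into macrophages, and total RNA of 3 samples in each of 5 groups was read on single-colour arrays. M1 cells received LPS, an outer membrane component of E. coli, together with interferon-gamma. M2 cells with nutlin-3a, which frees p53 from its inhibitor MDM2, and M2 cells with 10058F4, which keeps MYC from pairing with MAX, had received IL-4 and IL-13 besides the agent. M2 cells received IL-4 and IL-13 alone, and M0 cells were left untreated. The sources used here give no strain, dose, treatment time or vehicle. The labels name biological replicates without telling whether mice or cultures differed, and the p-values then cover only the spread of these samples, which may be technical. In such bulk samples, fewer cells that express a gene and less of its RNA per cell cannot be told apart.

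Sialic acid is an acidic sugar that caps the sugar chains of secreted and cell surface proteins and of glycolipids. Sialyltransferases add it in the Golgi, and they differ in the carbon of the acceptor sugar that they link it to and in the chains they act on. Siglecs, selectins and galectins bind to such chain ends or are kept from binding by them, and on macrophages the chains bear on adhesion and on recognition by other cells. St6gal1 links sialic acid to the sixth carbon of galactose, mainly on N-glycans, and the St3gal enzymes link it to the third carbon. St8sia4 extends sialic acid into chains of sialic acid. B4galt1 adds the galactose that sialyltransferases cap, and Gcnt1 and Gcnt2 open side branches on O-glycans and on lactosamine chains.

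Promoter sequence is shown for the 4 genes with the widest range of group means and for B4galt1, the gene that rose with both agents. Each run is the 250 bases before a RefSeq transcript start on GRCm38.p6, written 5′ to 3′ on the gene's own strand, and capitals mark motif matches. For St6gal1 (3 such windows) the most upstream start is shown, and for Gcnt1 (3 windows) the one with a match. The arrays do not tell which start was used. The windows are, in the order of the lines, chr16:23224490-23224739 on the plus strand, chr19:17356668-17356917 on the minus strand, chr1:95667595-95667844 on the minus strand, chr6:72097358-72097607 on the plus strand and chr4:40853985-40854234 on the minus strand.
St6gal1: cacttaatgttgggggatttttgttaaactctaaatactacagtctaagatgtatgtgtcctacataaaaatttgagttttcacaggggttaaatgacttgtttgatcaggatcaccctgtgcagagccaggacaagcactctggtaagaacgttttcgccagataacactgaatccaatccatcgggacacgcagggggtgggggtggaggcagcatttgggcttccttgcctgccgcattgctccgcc
Gcnt1: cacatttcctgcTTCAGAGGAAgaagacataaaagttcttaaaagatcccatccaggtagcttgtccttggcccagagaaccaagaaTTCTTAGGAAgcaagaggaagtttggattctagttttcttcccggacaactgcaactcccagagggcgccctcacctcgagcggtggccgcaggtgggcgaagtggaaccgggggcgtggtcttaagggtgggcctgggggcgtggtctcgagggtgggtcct
St8sia4: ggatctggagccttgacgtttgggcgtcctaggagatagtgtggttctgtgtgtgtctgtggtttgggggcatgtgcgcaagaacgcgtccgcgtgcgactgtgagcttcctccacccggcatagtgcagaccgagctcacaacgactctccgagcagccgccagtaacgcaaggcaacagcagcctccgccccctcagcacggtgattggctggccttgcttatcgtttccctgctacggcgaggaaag
St3gal5: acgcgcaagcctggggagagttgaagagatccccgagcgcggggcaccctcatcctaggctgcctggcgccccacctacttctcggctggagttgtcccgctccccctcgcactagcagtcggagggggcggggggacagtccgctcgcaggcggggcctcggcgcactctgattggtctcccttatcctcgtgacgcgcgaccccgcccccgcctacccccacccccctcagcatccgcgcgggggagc
B4galt1: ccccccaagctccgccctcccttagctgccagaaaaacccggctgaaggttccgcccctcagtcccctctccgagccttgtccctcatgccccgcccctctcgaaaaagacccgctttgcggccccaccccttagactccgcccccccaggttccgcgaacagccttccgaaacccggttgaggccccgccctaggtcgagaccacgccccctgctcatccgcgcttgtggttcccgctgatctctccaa

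RefSeq windows were found for 8 of the 10 genes, 15 windows in all, and none was looked up further for St3gal1 and St3gal2. Both strands were searched for 3 motifs. The E-box CACGTG, which MYC binds together with MAX, was in 0 of the 15 windows and in 6.02% of all 32851 windows. The STAT6 site, TTC and GAA with 4 bases of any kind between them, is bound after IL-4 and had 2 matches in the Gcnt1 window shown, and 5.85% of all windows held it. The NF-kappa-B site was found in 1 window of St3gal6 and in 5.93% of all windows. These matches are letters only and show no binding. The windows of St3gal5 and B4galt1 were rich in G and C (71.6% and 66.4%), that of St6gal1 was not (47.2%), and the median of all windows was 52.4%.

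The arrays of a group correlated with r of 0.989 to 0.997 across probe sets, with the lowest r among the M1 arrays (0.989 to 0.994). Among the 3 M1 arrays, replicate 2 lay nearest to the M0 mean for 9 of the 10 genes (St3gal4 was the exception). It did so for 47.1% of all tested genes, so M1 results are also given without it. Macrophage markers, 8 of 8, lay above the filter percentile on every array. The T and B cell markers Cd3e, Cd8a and Pax5 did too, so passing the filter does not by itself show cell identity. The M1 marker Nos2 averaged 8.56 ± 0.03 in M1 cells and between 4.84 and 5.03 in the other groups (SD, n = 3). The M2 marker Arg1 averaged between 10.34 and 10.52 in the 3 M2 groups, against 3.56 ± 0.26 in M0 and 6.47 ± 1.98 in M1 cells. Other M2 markers differed among the M2 groups. Retnla averaged 9.66 in M2 cells, 8.17 with nutlin-3a and 7.18 with 10058F4. In the same order Chil3 averaged 9.41, 10.36 and 10.81, and Mrc1 12.86, 13.03 and 13.21. The 3′ minus 5′ difference of beta-actin, a sign of RNA integrity, was 0.178 in M1 cells, 0.453 with nutlin-3a, 0.489 with 10058F4, 0.382 in M2 and 0.351 in M0 cells. That of Gapdh was -0.162 in M1 cells, -0.281 with nutlin-3a, -0.272 with 10058F4, -0.283 in M2 and -0.273 in M0 cells. Dendritic cell markers, of which 5 of 6 had a probe set, summed to a log2 value of 8.44 to 8.78 in M1 cells, 9.03 to 9.25 with nutlin-3a, 8.89 to 9.06 with 10058F4, 9.87 to 10.2 in M2 cells and 7.75 to 7.95 in M0 cells. The largest part of that sum was Batf3, a transcription factor, which averaged 7.63 in M1 cells, 8.89 with nutlin-3a, 8.59 with 10058F4, 9.90 in M2 cells and 6.99 in M0 cells. Xcr1 and Ccr7 lay above the filter percentile on the M1 arrays only, and the group means of Flt3 and Zbtb46 lay between 4.87 and 5.70. The part of RNA integrity and of other cell types in the results below was not tested.

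Over the 5 groups, all 10 genes passed limma's moderated F test at an adjusted p under 0.05, as did 78.1% of all tested genes. The range of the group means, highest minus lowest, was 6.02 for St6gal1, 4.99 for St8sia4, at least 4.24 for Gcnt1 and 3.81 for St3gal5 on the log2 scale. The Gcnt1 range has only that bound because its M1 level lay under the filter percentile. The M1 level of St6gal1 lay close to that percentile, so background may limit its range. As fitted, these 4 ranges were wider than those of 98.3% to 99.7% of the tested genes, whose median was 0.56. At the other end B4galt1 spanned 0.81, St3gal6 0.64 and Gcnt2 0.41. The plot of levels by array shows where each gene was high.

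**Figure D1:**
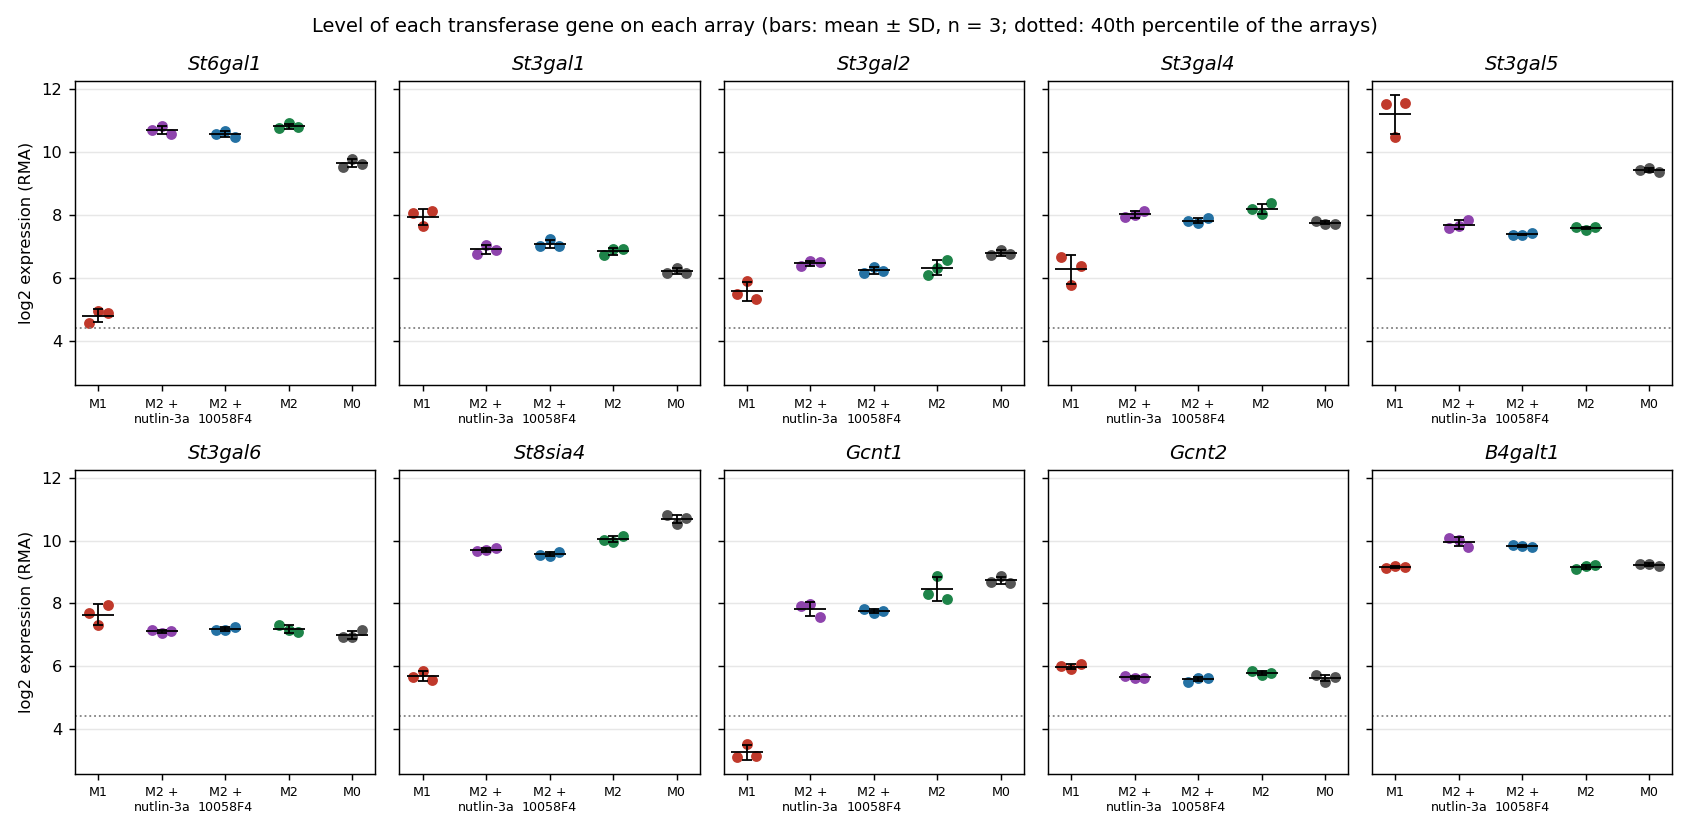
Log2 RMA expression of each of the 10 genes (y axis) in the 5 groups (x axis), with 1 point per array, bars for the mean ± SD of 3 arrays and a dotted line at the mean 40th percentile of the arrays. St6gal1, St8sia4 and Gcnt1 drop in M1 cells to means of 4.79, 5.69 and 3.27, St3gal5 peaks there at 11.19, and B4galt1 is highest in both agent groups.

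M1 and M0 cells were compared to follow the response to LPS with interferon-gamma. In M1 cells the N-glycan sialyltransferase St6gal1 was 28.8-fold lower, the polysialic acid enzyme St8sia4 31.7-fold lower and the O-glycan branching enzyme Gcnt1 at least 18.9-fold lower. The St6gal1 size may be limited by background, since its M1 level lay close to the filter percentile. The GM3 synthase St3gal5 and the O-glycan sialyltransferase St3gal1 were 3.41-fold and 3.32-fold higher. Of the 10 genes 4 were called higher and 5 lower by limma at an adjusted p under 0.05. Of all tested genes 72.7% were called, 33.6% higher and 39.1% lower. That balance turned with other scalings, to 5756 higher and 4697 lower with median-centred arrays and to 4976 and 4452 with repeated quantile normalization, against 4601 and 5362. Of the 10, 7 changed by at least 2-fold, against 18.4% of all tested genes. The arrays of M1 and M0 did not overlap for any of the 10, nor for 71.3% of all tested genes. The median of the size of the log2 difference was 1.60 for the 10 genes and 0.42 for all tested genes.

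St6gal1, at chr16:23224729-23360350, makes the sialic acid linkage that the B cell Siglec CD22 prefers. It was measured at 4.55, 4.94 and 4.86 in M1 cells, against 9.52, 9.77 and 9.62 in M0 cells. Every M1 array lay far below every M0 array, with the M1 mean near the middle of its arrays, at the 45.6th percentile. The log2 difference was -4.85 (SE 0.11, adjusted p = 8.47e-14), and -4.93 without M1 replicate 2. With the mean of both St6gal1 probe sets it was -2.84.

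St8sia4, at chr1:95587682-95667717, is one of the enzymes that make polysialic acid, a long chain carried by few proteins. Its values were 5.67, 5.86 and 5.55 in M1 cells, against 10.80, 10.53 and 10.72 in M0 cells. The log2 difference was -4.99 (SE 0.09, adjusted p = 1.25e-14), again with no overlap, and -3.05 with the mean of both probe sets.

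Gcnt1, at chr19:17326141-17372844, adds the branch that turns a simple O-glycan into a core 2 glycan, on which selectin ligands of leukocytes are built. It was read at 3.10, 3.54 and 3.15 in M1 cells, against 8.68, 8.87 and 8.66 in M0 cells. All 3 M1 values lay under the 40th percentile of their arrays, so the M1 level is only bounded from above. The bound of 18.9-fold sets M0 cells against that percentile, and the fitted log2 difference was -5.47 (SE 0.17, adjusted p = 2.44e-12), or -3.79 with the mean of both probe sets.

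St3gal5, at chr6:72097552-72154571, makes GM3, the ganglioside from which most others are built. It stood at 11.53, 10.47 and 11.56 in M1 cells, against 9.44, 9.47 and 9.35 in M0 cells. The second M1 array was well below the other two and still above every M0 array. The log2 difference was 1.77 (SE 0.20, adjusted p = 2.47e-06), and 2.13 (adjusted p = 3.35e-11) without M1 replicate 2.

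St3gal1, at chr15:67102875-67176946, caps the simple O-glycan and so competes with Gcnt1 for the same substrate. Its values were 8.04, 7.65 and 8.13 in M1 cells, against 6.16, 6.31 and 6.15 in M0 cells. The groups did not overlap, and the log2 difference was 1.73 (SE 0.12, adjusted p = 8.67e-09). The second St3gal1 probe set differed by 0.30 and was not called (adjusted p = 0.098), and the mean of both gave 1.01.

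The other enzymes that link sialic acid to the third carbon of galactose went both ways. St3gal4, which caps lactosamine and takes part in making selectin ligands, was at 6.66, 5.76 and 6.38 in M1 cells and at 7.79, 7.72 and 7.71 in M0 cells. The M1 arrays were widely spread and all were lower, at -1.47 on the log2 scale (SE 0.16, adjusted p = 1.70e-06) and -1.22 without M1 replicate 2. St3gal2, which acts on O-glycans and gangliosides, had 5.47, 5.91 and 5.31 in M1 cells and 6.71, 6.88 and 6.75 in M0 cells, a fall by 1.22 (SE 0.14, adjusted p = 2.08e-06). St3gal6, another lactosamine sialyltransferase, had 7.70, 7.31 and 7.94 in M1 cells and 6.94, 6.93 and 7.15 in M0 cells. Its rise of 0.64 (SE 0.12, adjusted p = 0.00034) was the smallest among the 3 sialyltransferases of the set called higher, and was 1.24 with the mean of its 5 probe sets.

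Gcnt2, the enzyme that branches lactosamine chains and makes the I blood group antigen, lay between 5.91 and 6.07 in M1 cells, against 5.71, 5.52 and 5.66 in M0 cells. That rise was small (0.36, SE 0.07, adjusted p = 0.00032). Some low-level markers of other cell types were also higher in M1 than in M0 cells. Cd3e averaged 5.49 against 5.05, Cd8a 5.21 against 4.86 and Pax5 5.44 against 4.97. Others went the other way, such as S100a9 (4.53 against 5.31) and Ms4a1 (3.86 against 4.05). Whether the Gcnt2 rise exceeds a general shift of low values in M1 cells was not tested. B4galt1, at chr4:40804602-40853984, was 9.12, 9.18 and 9.16 in M1 cells and 9.27, 9.24 and 9.18 in M0 cells. The B4galt1 difference missed the threshold (-0.08, SE 0.07, adjusted p = 0.343), with a 95% interval of -0.23 to 0.08. Without M1 replicate 2 the same 4 genes were called higher and the same 5 lower.

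M2 and M0 cells were compared to follow the response to IL-4 with IL-13. In M2 cells St6gal1 rose and St3gal5 fell, the opposite of what each did in M1 cells, and the remaining changes were under 2-fold. Of the 10 genes 3 were higher and 3 lower, against 31.0% of all tested genes called (12.7% higher and 18.4% lower). The median size of the log2 difference was 0.46 for the 10 genes, against 0.17 for all tested genes. The plot of differences from M0 cells sets both responses side by side. They share the M0 arrays.

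**Figure D2:**
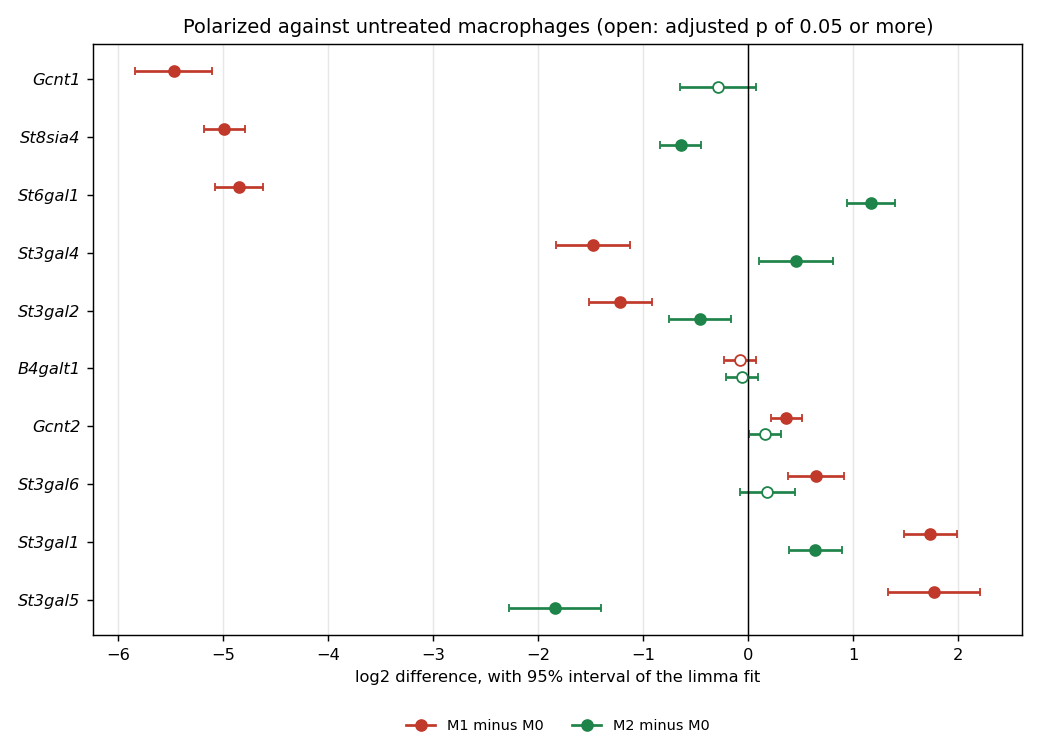
Log2 difference (x axis) of M1 minus M0 (red) and M2 minus M0 (green) for each gene (y axis), with the 95% interval of the limma fit; open points have an adjusted p of 0.05 or more. St6gal1 lies at -4.85 and 1.17, St3gal5 at 1.77 and -1.84, and St3gal1 is higher in both. The Gcnt1 point for M1 is the fitted value, whose M1 level lies under the filter percentile.

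St6gal1 was 10.74, 10.90 and 10.78 in M2 cells, against 9.52, 9.77 and 9.62 in M0 cells, and no arrays overlapped. It was 2.25-fold higher (log2 difference 1.17, SE 0.11, adjusted p = 1.57e-06). St3gal5 was 7.61, 7.53 and 7.60 in M2 cells, against 9.44, 9.47 and 9.35 in M0 cells, a tight pair of groups that lay far apart. The GM3 synthase was thus 3.58-fold lower (-1.84, SE 0.20, adjusted p = 1.12e-05). St8sia4 was 10.02, 9.96 and 10.14 in M2 cells and 10.80, 10.53 and 10.72 in M0 cells, lower by 1.56-fold (-0.64, SE 0.09, adjusted p = 8.52e-05).

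St3gal1 was 6.72, 6.91 and 6.91 in M2 cells and 6.16, 6.31 and 6.15 in M0 cells, higher by 0.64 (SE 0.12, adjusted p = 0.00096). St3gal4 was 8.19, 8.04 and 8.36 in M2 cells and 7.79, 7.72 and 7.71 in M0 cells. Its rise of 0.45 only just passed (SE 0.16, adjusted p = 0.0497) and was lost without any single array of either group (adjusted p of 0.0501 to 0.162) and with no filter on low values (0.0582). St3gal2 was 6.09, 6.31 and 6.56 in M2 cells and 6.71, 6.88 and 6.75 in M0 cells. Its fall of 0.46 (SE 0.14, adjusted p = 0.0207) was lost without M0 replicate 2 (0.0767), M2 replicate 1 (0.103) or M2 replicate 2 (0.0543) and with repeated quantile normalization (0.0657). The remaining genes were not called: St3gal6 differed by 0.18, Gcnt2 by 0.16, B4galt1 by -0.06 and Gcnt1 by -0.29. Gcnt1 was uneven in M2 cells (8.31, 8.89 and 8.15), and without M2 replicate 2 its difference of -0.50 was called (adjusted p = 0.0196).

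Set directly against each other, M1 and M2 cells differed in St6gal1, which was 65.0-fold lower in M1 cells (-6.02 on the log2 scale, SE 0.11, adjusted p = 1.29e-14). Its M1 level lay close to the filter percentile, so background may limit that size. St3gal5 was 12.2-fold higher in M1 cells (3.61, SE 0.20, adjusted p = 1.09e-09). Of the 10 genes 4 were higher and 5 lower in M1 cells, against 64.7% of all tested genes called (28.1% higher and 36.5% lower). St8sia4 (-4.34, SE 0.09) and St3gal4 (-1.93, SE 0.16) were lower, and Gcnt1 was at least 15.5-fold lower. St3gal1 was higher by 1.09 (SE 0.12), St3gal6 by 0.46 (SE 0.12) and Gcnt2 by 0.21 (SE 0.07, adjusted p = 0.0184), and St3gal2 was lower by 0.76 (SE 0.14). The St3gal6 arrays of the groups overlapped slightly, since the lowest M1 value and the highest M2 value both rounded to 7.31. The Gcnt2 call was lost without M1 replicate 3 (adjusted p = 0.0716) or M2 replicate 2 (0.075) and with only the 6 arrays compared in the fit (0.0693). B4galt1 did not differ beyond its error (-0.01, 95% interval -0.16 to 0.14).

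Each agent was compared with M2 cells that had not received it. B4galt1 rose and St8sia4 and Gcnt1 fell with nutlin-3a, and the same 3 genes were called in the same directions with 10058F4. Both comparisons use the same M2 arrays, so their likeness is not independent. Of the 10 genes 1 was higher and 2 lower with nutlin-3a, against 15.4% of all tested genes called (9.56% higher and 5.85% lower). With 10058F4 also 1 was higher and 2 lower, against 20.9% of all tested genes called (10.6% higher and 10.2% lower). The median size of the log2 difference was 0.14 with nutlin-3a (all tested genes 0.13) and 0.24 with 10058F4 (all tested genes 0.14).

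**Figure D3:**
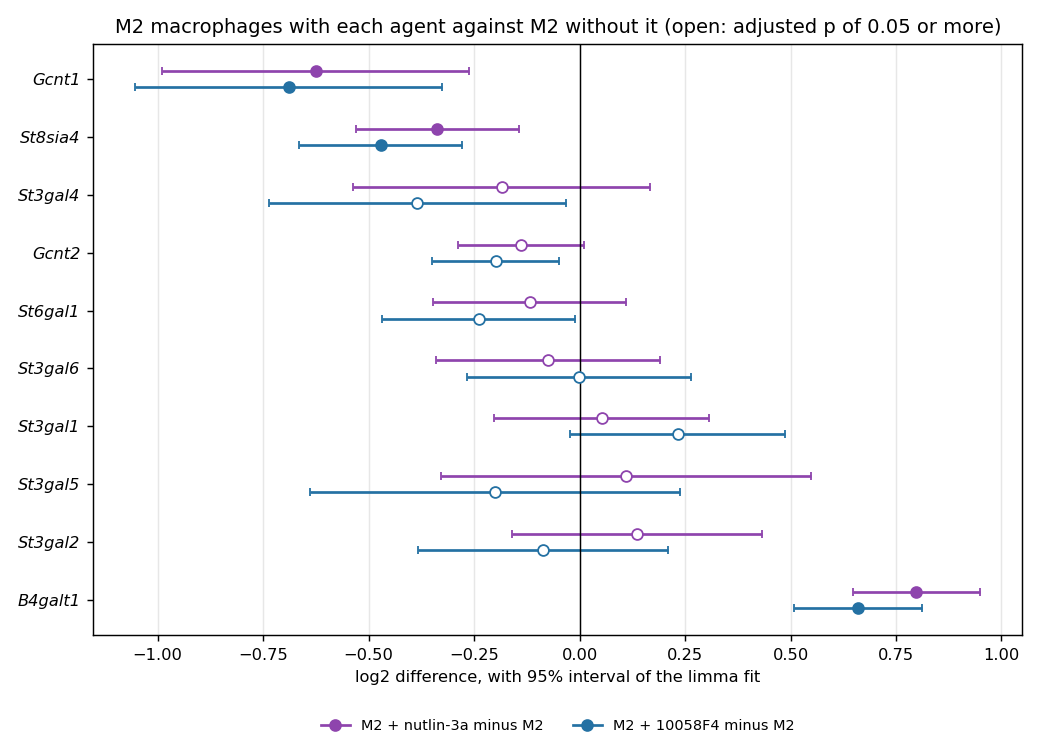
Log2 difference (x axis) of M2 cells with nutlin-3a (purple) or 10058F4 (blue) minus M2 cells without an agent for each gene (y axis), with the 95% interval of the limma fit; open points have an adjusted p of 0.05 or more. B4galt1 stands alone on the right at 0.80 and 0.66, and St8sia4 and Gcnt1 lie on the left.

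B4galt1 was 10.08, 10.01 and 9.80 with nutlin-3a and 9.84, 9.83 and 9.80 with 10058F4, against 9.08, 9.20 and 9.21 in M2 cells. All 6 arrays with an agent lay above all 3 without. The rise was 1.74-fold with nutlin-3a (log2 difference 0.80, SE 0.07, adjusted p = 5.39e-06) and 1.58-fold with 10058F4 (0.66, SE 0.07, adjusted p = 1.51e-05). B4galt1 was also above M0 cells in both agent groups, by 0.74 (adjusted p = 2.08e-06) and 0.60 (adjusted p = 1.45e-05), whereas neither M1 nor M2 cells differed from M0 cells beyond the threshold. Of the 10 genes it was the only one called with both agents, against M2 and M0 cells alike, and in neither M1 nor M2 against M0 cells. Against M0 cells 28.9% of all tested genes were called with nutlin-3a and 33.0% with 10058F4.

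Gcnt1 was 7.92, 7.99 and 7.56 with nutlin-3a and 7.82, 7.70 and 7.76 with 10058F4, against 8.31, 8.89 and 8.15 in M2 cells. The agent arrays all lay below the M2 arrays, whose own spread was the widest. The fall was 0.69 with 10058F4 (SE 0.17, adjusted p = 0.00955) and 0.63 with nutlin-3a (SE 0.17, adjusted p = 0.0234). The nutlin-3a call was lost without M2 replicate 2 (adjusted p = 0.0843), without nutlin-3a replicate 3 (0.0948), with only the 6 arrays compared (0.0589) and with the mean of both Gcnt1 probe sets (0.116).

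St8sia4 was 9.65, 9.68 and 9.77 with nutlin-3a and 9.55, 9.50 and 9.65 with 10058F4, against 10.02, 9.96 and 10.14 in M2 cells. The groups did not overlap. It fell by 0.47 with 10058F4 (SE 0.09, adjusted p = 0.00184) and by 0.34 with nutlin-3a (SE 0.09, adjusted p = 0.0219). The nutlin-3a call was lost without M2 replicate 1, M2 replicate 3, nutlin-3a replicate 1 or nutlin-3a replicate 2 (adjusted p of 0.0591 to 0.0872).

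The other 7 genes were not called with either agent. With 10058F4 the closest were Gcnt2 (-0.20, adjusted p = 0.0578), St3gal4 (-0.38, adjusted p = 0.12) and St6gal1 (-0.24, adjusted p = 0.135). The calls so far come from a fit that ignores the replicate number, although same-numbered arrays deviated alike. With that number as a block, Gcnt2 (adjusted p = 0.0434) and St6gal1 (adjusted p = 0.0412) were called lower with 10058F4. That made 5 of 10, against 23.7% of all tested genes under the same block. St6gal1 and St3gal5, the genes that M2 polarization moved most, were still called against M0 cells under the agents. St6gal1 lay above M0 cells by 1.05 with nutlin-3a and by 0.93 with 10058F4 (adjusted p = 3.57e-06 and 1.06e-05), and St3gal5 lay below by 1.73 and 2.04 (adjusted p = 1.63e-05 and 3.03e-06).

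Nutlin-3a and 10058F4 were also compared with each other. Of the 10 genes 0 were called by limma, against 6.96% of all tested genes, and 0 had an unadjusted p under 0.05. The lowest p was that of B4galt1, which was higher with nutlin-3a by 0.14 (95% interval -0.01 to 0.29, adjusted p = 0.31). St3gal5 had the largest difference, 0.31 (-0.13 to 0.75), with 7.57, 7.65 and 7.84 with nutlin-3a and 7.36, 7.37 and 7.41 with 10058F4. These arrays did not overlap, nor did those of 32.0% of all tested genes. The St3gal5 difference was called with array weights (adjusted p = 0.0465) and with only the 6 arrays compared (0.0422).

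Ordered by group mean, St6gal1 ran from M2 cells down to M1 cells. In the fit to all arrays without a block its 3 IL-4 groups did not differ from each other beyond the threshold, but 10058F4 was called lower than M2 with the replicate block (above), with array weights (adjusted p = 0.049) and with only the 6 arrays compared (0.0469). St3gal5 ran from M1 through M0 to those 3 groups, which that fit did not tell apart either. With only the 6 arrays compared it was called lower with 10058F4 than in M2 cells (adjusted p = 0.0288), beside the calls between the agents given above. St8sia4 ran from M0 through M2 to the agent groups and then M1 cells, and every step differed except that between the agents. Gcnt1 had the same order, with M0 and M2 cells not told apart either. For B4galt1 the agent groups came first, and M0, M2 and M1 cells followed without a difference between neighbours. St3gal1 was highest in M1 cells and lowest in M0 cells, and St3gal4 and St3gal2 were lowest in M1 cells.

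The 10 genes had 28 probe sets, 18 of which were not used. A fit over all 24488 probe sets past the filter, chosen after the data had been seen, covers 10 of the 18. In M1 against M0 cells 9 of these were called, each in the direction of the probe set used, and 70.5% of all probe sets were called. The plot of probe sets shows that the sizes differed a great deal.

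**Figure D4:**
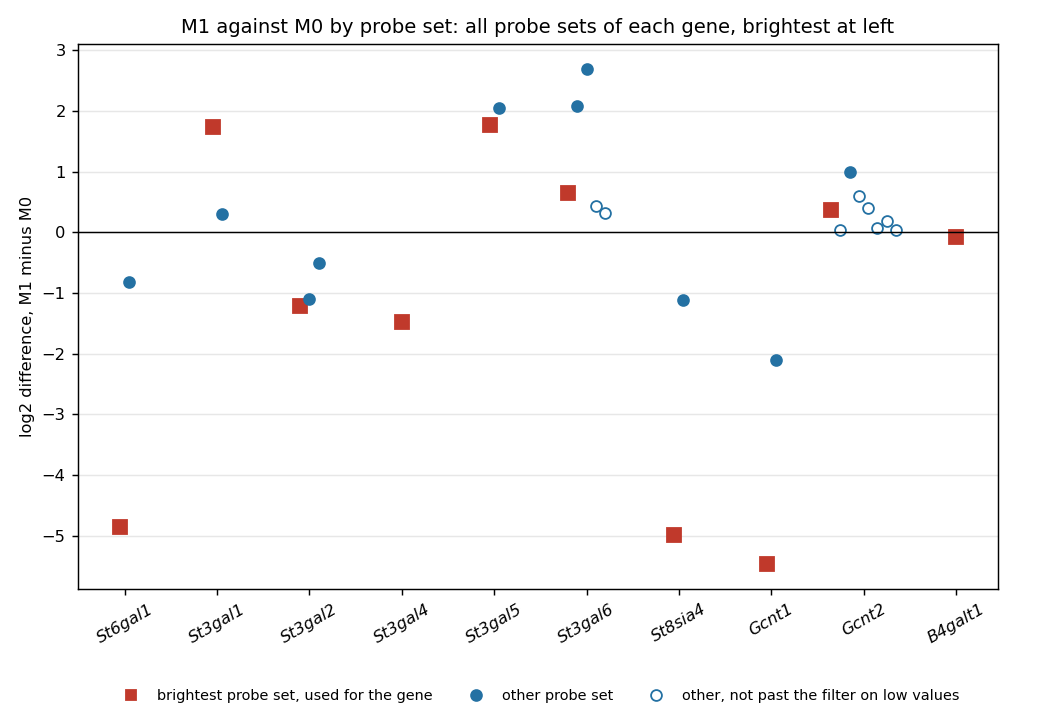
Log2 difference M1 minus M0 (y axis) of every probe set of each gene (x axis), the brightest at the left; red squares are the probe sets used, blue points the others, and open points did not pass the filter on low values. The second probe sets of St6gal1, St8sia4 and Gcnt1 fall less, and those of St3gal6 rise more, than the ones used.

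St6gal1 fell by 0.82 in its dimmer probe set (adjusted p = 8.13e-05), St8sia4 by 1.11 (3.05e-07) and Gcnt1 by 2.11 (1.51e-06). The M1 means of the St6gal1 and Gcnt1 ones, 4.35 and 3.86, lay under the filter percentile, so their sizes are not exact. St3gal5 rose by 2.05 in M1 cells in its second probe set and fell by 2.11 in M2 cells (adjusted p = 1.39e-06 and 7.75e-06), close to the one used. St3gal6 rose by 2.70 and 2.08 in its other probe sets that passed, against 0.64 in the one used, whose probes may be shared with other transcripts by its suffix. Its probe set with 2.70 averaged 3.10 in M0 cells, under the filter percentile, so that size is not exact.

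The agents gave less even results. The second Gcnt1 probe set was not called with nutlin-3a (-0.24, adjusted p = 0.545) or 10058F4 (-0.39, adjusted p = 0.277). The second St8sia4 probe set was called with 10058F4 (-0.34, adjusted p = 0.0358) and not with nutlin-3a (-0.26, adjusted p = 0.123). Gcnt2 has several transcripts with first exons of their own, and its other probe set that passed went against the one used. It rose by 0.57 with nutlin-3a (adjusted p = 0.00874) and by 0.86 with 10058F4 (adjusted p = 0.000241), from a level in M2 cells, 3.07, that lay under the filter percentile. B4galt1 and St3gal4 had 1 probe set each, so their results have no such check.

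The wider pathway was followed in 9 lists of 96 genes, of which 93 had a probe set and 85 were tested. In M1 cells 25 of the 85 were higher and 46 lower than in M0 cells. That share, 83.5%, stood against 72.7% of all tested genes. With median-centred arrays it was 84.7% against 76.3%, but with repeated quantile normalization it was 68.2% against 68.8%. The counts of single lists that follow are to be read against the same 72.7%. Of 8 genes for the synthesis, activation, transport and breakdown of sialic acid 7 were lower and 1 higher, with a median log2 difference of -0.85, against -0.0048 for all tested genes. Npl, the lyase that breaks sialic acid down, fell by 4.49 (SE 0.50, adjusted p = 1.78e-06), and Nanp, the phosphatase that completes its synthesis, fell by 1.54 (SE 0.09, adjusted p = 2.39e-09). Of 11 genes of N-glycan trimming and branching 6 were lower and 4 higher (median -0.19). Man2a2, a Golgi mannosidase that prepares N-glycans for branching, fell by 4.67 (SE 0.14, adjusted p = 1.95e-12) and Mgat5, which adds the branch that galectins favour, by 1.33 (SE 0.08, adjusted p = 3.97e-09).

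O-glycan core genes were lower in 8 of 12 and higher in 2 (median -0.58). C1galt1, which makes the core on which Gcnt1 and St3gal1 act, fell by 1.74 (SE 0.11, adjusted p = 5.12e-09), and Galnt4, which starts O-glycans, fell by 2.49 (SE 0.15, adjusted p = 2.96e-09). Of 6 other ganglioside genes 5 were lower and 1 higher (median -1.06), among them B4galnt1, the next enzyme after GM3, which fell by 1.52 (SE 0.17, adjusted p = 2.09e-06) while the GM3 synthase rose. Hexa, a lysosomal enzyme that breaks gangliosides down, fell by 1.48 (SE 0.06, adjusted p = 1.50e-11). Of 11 other sialyltransferases 6 were higher and 2 lower (median 0.23), and St3gal3 at -0.94 (SE 0.07, adjusted p = 1.95e-08) was the largest change. Of 11 lactosamine and galactose transfer genes 3 were higher and 6 lower (median -0.22), with B3gnt8, which extends lactosamine chains, at -1.44 (SE 0.11, adjusted p = 4.29e-08). Repeated quantile normalization left 21 of the 85 higher and 37 lower and moved their median from -0.28 to 0.0077. It turned the median of this last list to 0.07 and that of the N-glycan list to 0.0028, with 4 higher and 4 lower, while the sialic acid supply list stayed at 1 higher and 7 lower.

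In M2 cells 15 of the 85 pathway genes were higher and 18 lower than in M0 cells, 38.8% against 31.0% of all tested genes. Man1a, a Golgi mannosidase, rose by 1.60 (SE 0.12, adjusted p = 1.78e-07) and Mgat1, which opens the way to complex N-glycans, by 1.01 (SE 0.06, adjusted p = 5.03e-08). Both act upstream of St6gal1 on the same chains. B4galt6, one of the lactosylceramide synthases that supply St3gal5, fell by 1.34 (SE 0.07, adjusted p = 9.66e-09), and it also fell in M1 cells, by 1.11 (adjusted p = 4.86e-09), where St3gal5 rose. The other such synthase, B4galt5, was not called in M2 cells (0.19, adjusted p = 0.165) and rose by 0.91 in M1 cells (adjusted p = 1.16e-06). Galnt4 and C1galt1 fell by 1.46 and 0.94 (adjusted p = 6.71e-06 and 2.27e-05).

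With nutlin-3a 12 of the 85 were higher and 9 lower than in M2 cells, 24.7% against 15.4% of all tested genes. With 10058F4 13 were higher and 15 lower, 32.9% against 20.9% of all tested genes. C1galt1 rose by 0.76 with nutlin-3a and by 0.70 with 10058F4 (adjusted p = 0.00052 and 0.000497). Ugcg, which makes the first glycolipid of the ganglioside path, rose by 0.48 and 0.92 (adjusted p = 0.00577 and 1.84e-05). Of the 8 sialic acid supply genes 2 rose with nutlin-3a, Gne, the first enzyme of its synthesis, by 0.65 (adjusted p = 0.000191), and Slc35a1, which carries activated sialic acid into the Golgi, by 0.32 (adjusted p = 0.00334). With 10058F4 1 rose, Cmas, which activates sialic acid, by 0.62 (adjusted p = 4.00e-05). Gne was higher with nutlin-3a than with 10058F4 by 0.48 (adjusted p = 0.00263), and Cmas was lower by 0.42 (adjusted p = 0.00267). Of the 11 N-glycan genes 3 were higher and 1 lower with nutlin-3a, and 3 were higher and 2 lower with 10058F4. Mgat5 rose by 0.60 with nutlin-3a (adjusted p = 0.000355), and Man2a1, a Golgi mannosidase, rose by 0.56 with 10058F4 (adjusted p = 9.73e-06). Mgat4a, another branching enzyme, fell by 0.56 with nutlin-3a and by 0.70 with 10058F4 (adjusted p = 0.00154 and 0.000136).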

How the data were processed

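Each of 15 samples was read on 1 array. The authors deposited log2 expression values for each probe set. Per the submitters' processing notes they come from RMA, of a version the sources do not state; the log base was read from the values. RMA forces the probe values of all arrays to one distribution before they are summarized, so a shift of most genes would be hidden. The summarized values were not on one distribution, since the 40th percentile of the arrays ran from 4.34 to 4.52. Of 45101 probe sets 34945 named 1 gene, through GEO's platform annotation and RefSeq symbols of GRCm38.p6. Differences are contrasts of limma's linear model (lmFit, eBayes) with 1 mean per group over the 15 arrays, 10 residual degrees of freedom and 3.86 from the prior, Benjamini-Hochberg adjusted over 13703 genes and called at an adjusted p under 0.05. Errors are SEs of the fit for differences and SDs over 3 arrays for levels, and 3 arrays per group limit the precision. The genes, the pathway lists and the tests were chosen with earlier results of these data known. Every member was named, together with up to 2 called genes per list and comparison with the largest difference, and for 3 members the 3 genes most like each. Outside that rule, B4galt5 was given beside B4galt6 as the other lactosylceramide synthase. Groups and replicate numbers came from the titles, which do not say what a number shares. Deviations of same-numbered arrays from their group means correlated at 0.232 to 0.424 between M2 and M0 arrays, at 0.308 to 0.381 between either agent and M2, and at 0.341 to 0.408 between nutlin-3a and 10058F4. Each is over 0.1, so arrays of the same number share something, read from the data alone. Whether that is a mouse, a culture or a processing batch is not known. The lowest for M1 and M0 was 0.055, and the main fit has no block. Alternatives were other filters, probe set rules, scalings, weights, the replicate block and arrays left out. The repeated quantile normalization was run on the 13703 tested genes, with 1 probe set each, and not on all probe sets. R 4.3.3, limma 3.58.1, Python 3.11.15, pandas 2.3.3 and matplotlib 3.10.9 were used.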

Additional observations from a re-analysis of the deposited data

How the results depend on the processing

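The log2 differences of the 10 genes were recomputed 1590 times over 10 comparisons and the alternative settings. Of these, 1551 kept their side of the threshold, 22 lost a call and 17 gained one. Of the differences called in either fit, 0 turned round. Changes of direction among differences called in neither fit were not counted. In M1 against M0 cells all 159 recomputed differences kept their side of the threshold. In 10058F4 against M2 cells, array weights called 7 of the 10 genes, the replicate block 5 and a fit of only those 6 arrays 6, against 3; of all tested genes they called 31.5%, 23.7% and 27.1%, against 20.9%. In nutlin-3a against 10058F4, array weights and a fit of only those arrays each called 1, against 0. Leaving out 1 array gave 9 called in M1 against M0, 4 to 5 in M2 against M0, 8 to 9 in M1 against M2, 2 with nutlin-3a, 3 with 10058F4 and 0 between the agents. The cause of these changes was not tested. The block changed no other count of the 10 genes, and no count over all tested genes by over 1.5 times. Over all tested genes, calls with nutlin-3a against M2 were 2112, and 3302 with array weights, 1243 without M2 replicate 1 and 1251 without nutlin-3a replicate 2. Those with 10058F4 against M2 were 2858, and 4311 with array weights. Those between the agents were 954, and 2044 with array weights, 1483 with only those arrays and 567 to 614 without nutlin-3a replicate 2 or 3 or 10058F4 replicate 1 or 3. Median-centred arrays shifted the all-gene median in M1 against M0 cells from -0.0048 to 0.102 and the share of calls that were higher in M1 against M2 cells from 43.5% to 54.4%, and the calls of the 10 genes stayed. The mean of all probe sets shrank the M1 against M0 differences of St6gal1 to -2.84, St8sia4 to -3.05, Gcnt1 to -3.79 and St3gal1 to 1.01 and raised that of St3gal6 to 1.24. For Gcnt2 that mean did not pass the filter on low values, and probe sets specific by suffix raised that of St3gal6 to 2.70. Values under the 40th percentile of an array are not shown to be above background.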

Other observations

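Receptors that bind the ends of sugar chains were followed by their RNA. Of 15 tested receptor genes for sialic acid or galactose, 8 were higher and 5 lower in M1 than in M0 cells (median log2 difference 0.30), where 72.7% of all tested genes were called. Siglecf, a receptor for sialic acid known best from eosinophils and alveolar macrophages, fell by 3.33 (SE 0.30, adjusted p = 2.15e-07), with an M1 mean of 4.20 that lay under the filter percentile. Pilrb1, an activating receptor for sialylated ligands, rose by 3.00 (SE 0.15, adjusted p = 2.34e-10), although it has a near copy in Pilra that its probes could also read. In M2 cells 3 of the 15 were higher and 4 lower than in M0 cells, where 31.0% of all tested genes were called, and Mgl2, a lectin for galactose and N-acetylgalactosamine, was higher by 1.85 (SE 0.20, adjusted p = 7.19e-06), with an M0 mean of 4.10 that also lay under the filter percentile, so that size is not exact.

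Of the 15 receptor genes 1 was higher and 1 lower with nutlin-3a than in M2 cells, and 2 were higher and 1 lower with 10058F4, where 15.4% and 20.9% of all tested genes were called. Mgl2 fell by 1.33 with nutlin-3a and by 1.20 with 10058F4 (adjusted p = 0.000478 and 0.000558). Clec10a, its close relative, rose by 1.30 with 10058F4 (SE 0.17, adjusted p = 0.000105) and was lower with nutlin-3a than with 10058F4 by 1.03 (adjusted p = 0.00183). Among 9 genes of fucose transfer and selectin ligands, 0 were higher and 5 lower in M1 than in M0 cells, a smaller share than the 72.7% of all tested genes. Their median log2 difference was -0.30, and -0.0090 with repeated quantile normalization. Cd44, a carrier of selectin ligands, fell by 1.40 (SE 0.07, adjusted p = 1.75e-10). Fut7, which completes sialyl Lewis X, fell by 0.49 with nutlin-3a and by 0.51 with 10058F4 (adjusted p = 0.0127 and 0.00736).

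The genes whose profile over the 15 arrays was most like that of St6gal1 were Zfp362 (Pearson r 0.997), Golim4 (0.996) and Pank3 (0.995). For Gcnt1 they were Idh2 (0.995), Sesn1 (0.993) and Crip1 (0.991), and for St8sia4 Itgb5 (0.998), Atp2b1 (0.995) and Ebpl (0.995). These values describe likeness over arrays that fall into groups, with M1 cells far from the rest.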
